A study of Homo sapiens with 4 samples.

Results

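Collagen and laminin chain genes were compared in Kelly neuroblastoma cells, a human line, with and without knockdown of BORIS. The genes taken were all those with a symbol made of COL, a number, A and a number, or of LAMA, LAMB or LAMC and a digit. Of 18244 genes represented on the array, 53 met this rule, 43 of them collagens and 10 laminins. They were covered by 144 probe sets that named 1 gene alone, and each gene was represented by its brightest. A further 3 genes of the annotation fit the rule and were not analysed here.

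All cells came from a Kelly line with resistance to TAE684, which blocks the ALK receptor kinase, with the drug at 1 µM in the medium. They were infected for 24 h with virus and selected in puromycin for 48 h. The shBORIS group carried a short hairpin RNA against BORIS, the protein made by CTCFL, and the shLUC group, the control, carried a hairpin against luciferase. Each group had 2 arrays, biological duplicates by the labels. The labels name 1 hairpin against BORIS, so loss of BORIS and other actions of that hairpin cannot be told apart. BORIS is a paralog of CTCF, with zinc fingers that resemble those of CTCF, and is normally restricted to the germ line.

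Collagens are proteins whose chains wind into a triple helix, most of them secreted and some held in the cell membrane. The fibrillar types form the ropes of connective tissue, type IV forms the sheet of basement membranes, and type VI forms beaded filaments around cells. Laminins are cross-shaped trimers of an alpha, a beta and a gamma chain that start the assembly of basement membranes and bind integrins on the cell surface. In neuroblastoma, matrix genes are mainly known from the mesenchymal cell state and from the Schwann cell and fibroblast stroma of tumours, which a cell line grown alone lacks.

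The targeted gene was lower in both shBORIS replicates. CTCFL had intensities of 701 and 737 on the shBORIS arrays, against 3563 and 3376 on the shLUC arrays, a log2 difference of -2.25 as deposited (SE 0.11; limma adjusted p = 2.41e-92). Log2 intensities correlated across genes at 0.997 for the pair of shBORIS arrays, 0.996 for the pair of shLUC arrays and 0.959 to 0.961 between arrays of different groups. The median of the 10946 genes bright enough to test was 0.48 higher with shBORIS on the log2 scale of the deposited values. Differences are therefore given on 2 scales, as deposited and relative to each array's median. Background probe sets with the most G and C moved the same way: 7 of them differed by 0.29 to 0.54, while the 12 with the least differed by -0.02 to 0.04. The part of this background in the results was not tested.

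Most of these genes were dim. A gene was tested when its mean over the 4 arrays reached an intensity of 62.2, the 40th percentile of all genes, and 24 of the 53 did, 18 collagens and 6 laminins. The 29 others had means of 12.7 to 58.4. The members nearest the limit were COL5A2 at a mean of 62.8 and COL25A1 at 63.8 inside it, and LAMA4 at 58.4 and COL11A2 at 57.7 outside it. Of the 24, 19 reached 62.2 in both groups. COL13A1 and COL6A3 reached it only in shLUC cells, and COL7A1, COL5A2 and COL25A1 only in shBORIS cells.

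A stricter limit was the 95th percentile of each array's background probe sets, which was 396 and 438 with shBORIS, against 281 and 284 with shLUC. On both arrays of a group, 6 members exceeded it with shBORIS and 7 with shLUC. COL1A1, COL2A1, COL6A1, LAMA1, LAMB1 and LAMC1 did so in both groups, and LAMA5 in shLUC cells alone. This percentile lies among the background sets richest in G and C. Of the 53, 10 in shBORIS cells and 13 in shLUC cells exceeded the mean of the background sets on both arrays, and 47 and 48 exceeded their median. The fold changes of members below these limits are approximate.

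**Figure D1:**
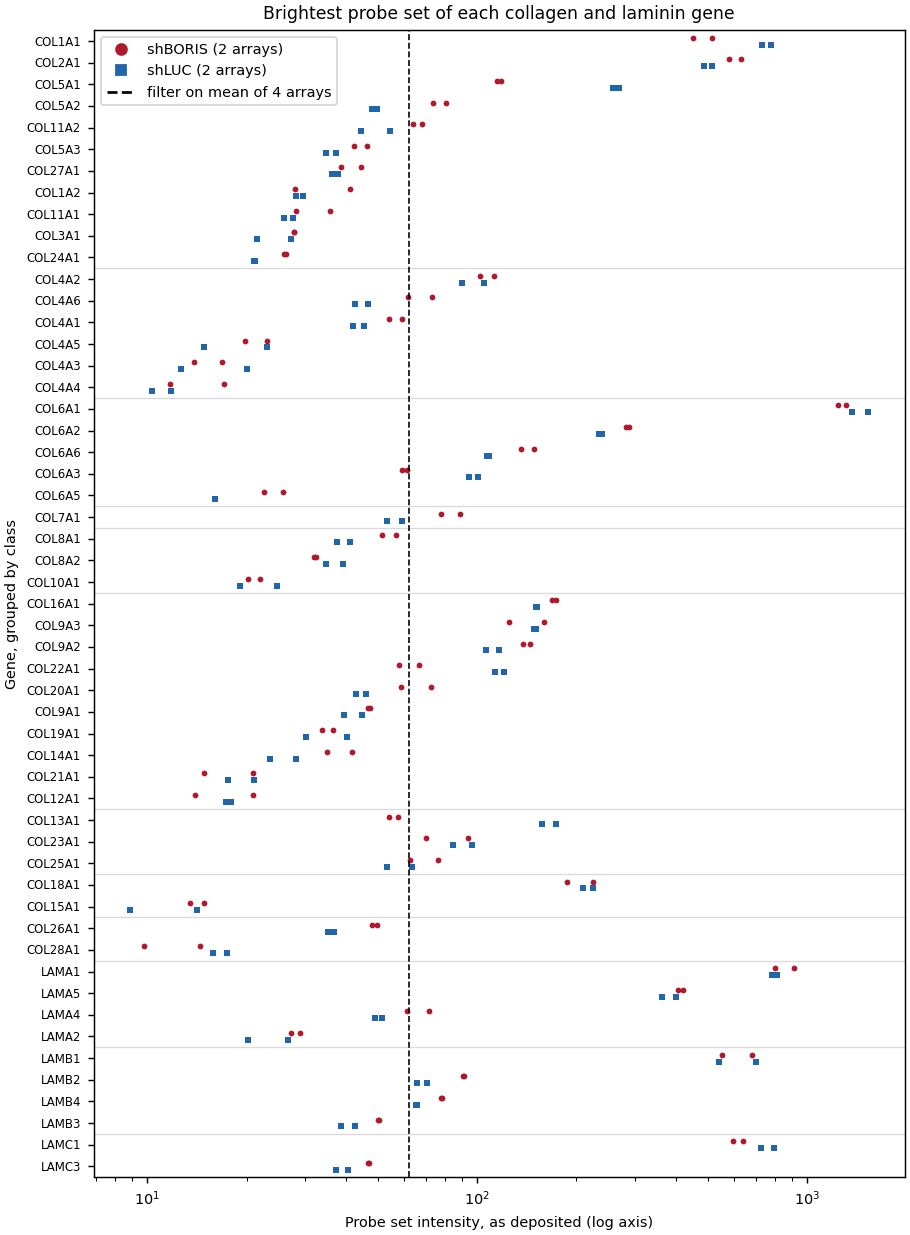
Intensity of the brightest probe set of each of the 53 collagen and laminin genes on each array (log axis), with shBORIS as circles and shLUC as squares and genes grouped by class. The dashed line is the filter at 62.2, which 24 genes exceeded by their mean over the 4 arrays.

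As deposited, 6 of the 24 members tested fell and 7 rose, while 4.64% of all genes tested fell and 77.2% rose. Relative to the array median, 19 members fell and 0 rose, while 28.8% of all genes fell and 30.3% rose. At an unadjusted limma p under 0.05, 0 of the 24 were higher on that scale. Quantile normalization in place of the median gave 1, COL5A2. The median of the 24 differences was 0.10 as deposited, against 0.48 for all genes, and -0.37 relative to the median, against 0.00137 for all genes. Without the filter, 23 of the 53 fell and 0 rose relative to the median, beside 27.7% and 25.9% of all genes. As deposited 6 fell and 16 rose in that fit, beside 3.73% and 53.6%. The median taken off without the filter was that of all 18244 genes, so relative values differ from those of the main fit. The 6 that fell on both scales were COL13A1, COL5A1, COL22A1, COL1A1, COL6A3 and LAMC1. Of these, COL13A1 and COL6A3 reached the filter only in shLUC cells. Of the members that rose as deposited, COL7A1 and COL5A2 reached it only in shBORIS cells. The counts include these members. Falls on both scales were found in 4.64% of all genes, the same share as falls as deposited. In the main fit the relative difference is the deposited one less 1 amount shared by all genes. That amount was above 0, so a gene that fell as deposited also read lower relative to the median. A fall on both scales is therefore not separate support for a fall as deposited. As deposited, both shBORIS arrays lay above both shLUC arrays in 10 of the 24 members, beside 83.8% of all genes, and below them in 7, beside 6.65%.

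**Figure D2:**
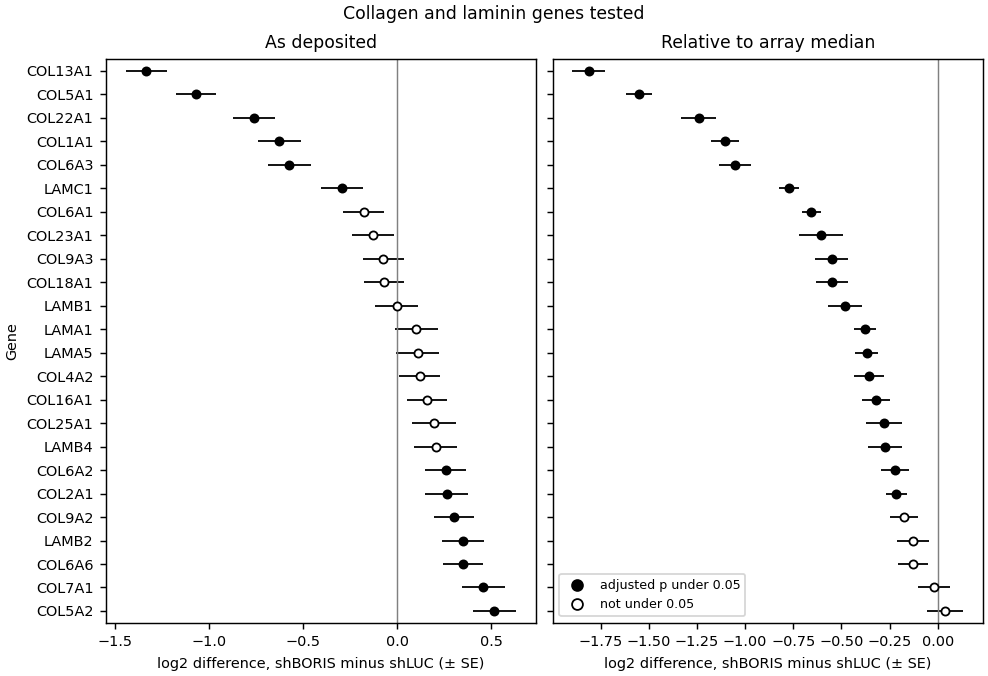
Log2 difference, shBORIS minus shLUC, with its SE for each of the 24 genes tested, as deposited on the left and relative to the array median on the right. The SE on the left follows the intensity trend of all genes, not the spread of the gene's own arrays. Filled points passed an adjusted p of 0.05: 13 on the left, of which 6 lie below 0, and 19 on the right, all below 0.

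The difference of a gene went with its level across the array, and the members were set beside all genes of like level. The dimmest of 5 equal bands of the genes tested had means of 62.2 to 114. In it 36.0% of all genes fell relative to the median, and 7 of the 10 members did. Those 10 include every member that reached the filter in 1 group only. In the brightest 2 bands, with means above 338.8, 22.4% and 25.4% of all genes fell, and all 7 members there did. The median relative difference of all genes was -0.14 in the dimmest band and 0.11 and 0.08 in the brightest 2, while that of the members was -0.32 in the dimmest and -0.43 and -0.66 in the brightest 2.

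**Figure D3:**
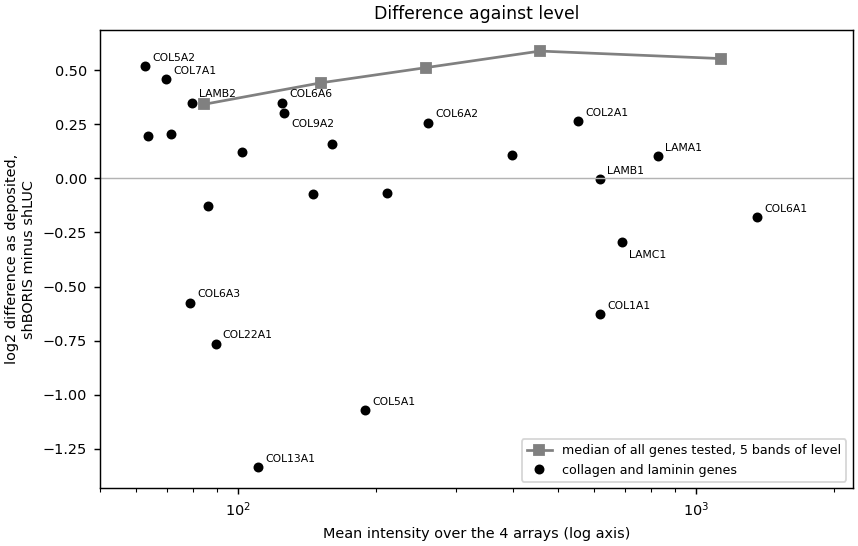
Log2 difference as deposited against mean intensity (log axis) for the 24 genes tested, as points, and for the median of all genes tested in 5 bands of level, as squares. The band medians run from 0.34 to 0.59, and the 7 members with means above 338.8 lie between -0.63 and 0.26.

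BORIS binds DNA, but its binding to the collagen and laminin genes was not tested, and the sequences below mark no BORIS or CTCF sites. The stretches before the starts of 4 of the 6 genes that fell on both scales are shown. That of COL6A2, which rose as deposited and fell relative to the median, and the gap shared by COL4A1 and COL4A2 follow. RefSeq promoters of GRCh38.p14 were found for 39 of the 53 genes. The sequences are the 250 bases before the start, read 5′ to 3′ on the gene's strand, and for the gap the 126 bases between both starts on the plus strand. Capitals mark matches on either strand to the GC box GGGCGG, the CCAAT box CCAAT or the TATA box TATAAA. No match of 1 motif overlapped that of another in these 39.
COL13A1 (chr10:69801656-69801905, plus strand): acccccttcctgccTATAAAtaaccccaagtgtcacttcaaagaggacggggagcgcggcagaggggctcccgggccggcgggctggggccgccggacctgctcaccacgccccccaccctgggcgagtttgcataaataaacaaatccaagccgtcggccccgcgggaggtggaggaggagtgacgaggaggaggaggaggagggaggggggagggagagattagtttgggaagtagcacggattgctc
COL5A1 (chr9:134641553-134641802, plus strand): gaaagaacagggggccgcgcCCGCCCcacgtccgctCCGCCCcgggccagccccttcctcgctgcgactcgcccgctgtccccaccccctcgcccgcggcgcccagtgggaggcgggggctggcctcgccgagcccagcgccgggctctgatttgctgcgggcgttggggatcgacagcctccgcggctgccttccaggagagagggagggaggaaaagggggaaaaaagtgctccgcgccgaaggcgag
COL6A3 (chr2:237414165-237414414, minus strand): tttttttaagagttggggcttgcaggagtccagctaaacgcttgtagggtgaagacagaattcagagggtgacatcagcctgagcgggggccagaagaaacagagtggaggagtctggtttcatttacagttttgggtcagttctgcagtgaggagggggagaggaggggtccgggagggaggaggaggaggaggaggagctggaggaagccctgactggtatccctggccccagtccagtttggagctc
LAMC1 (chr1:183023170-183023419, plus strand): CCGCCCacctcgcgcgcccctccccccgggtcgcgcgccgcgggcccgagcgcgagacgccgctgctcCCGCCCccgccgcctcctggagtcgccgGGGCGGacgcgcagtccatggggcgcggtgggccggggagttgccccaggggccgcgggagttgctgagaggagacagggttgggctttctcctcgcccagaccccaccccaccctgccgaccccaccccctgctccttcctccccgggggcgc
COL6A2 (chr21:46097862-46098111, plus strand): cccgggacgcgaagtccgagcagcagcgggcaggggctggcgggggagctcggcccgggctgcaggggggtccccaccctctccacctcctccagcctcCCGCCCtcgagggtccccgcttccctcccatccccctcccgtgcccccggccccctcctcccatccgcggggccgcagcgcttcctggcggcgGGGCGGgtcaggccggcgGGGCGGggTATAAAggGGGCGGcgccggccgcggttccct
COL4A1 and COL4A2 gap (chr13:110307158-110307283, plus strand): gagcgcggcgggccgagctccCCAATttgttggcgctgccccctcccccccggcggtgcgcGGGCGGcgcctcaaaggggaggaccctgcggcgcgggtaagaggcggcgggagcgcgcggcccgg

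These stretches differ in their motifs. COL6A2 holds 4 GC boxes and 1 TATA box, LAMC1 holds 3 GC boxes and COL5A1 holds 2. COL13A1 holds a TATA box and 0 GC boxes, and COL6A3 holds 0 of the 3 motifs. Other members that rose as deposited and have a RefSeq promoter are not shown. Of these, COL7A1 and COL9A2 hold 3 GC boxes each, COL6A6 holds 2 and LAMB2 holds 1. COL7A1 and COL6A6 also hold a TATA box. In the 250 bases before the start, a GC box was found in 23 of the 39 (59.0%) and in 42.3% of all 27305 promoters of the table, a CCAAT box in 9 (23.1%) and in 33.0%, and a TATA box in 4 (10.3%) and in 11.1%. The gap of COL4A1 and COL4A2 holds 1 CCAAT box and 1 GC box.

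Among fibrillar collagens, COL5A1 and COL1A1 fell on both scales. COL5A1 encodes a type V chain, which joins type I fibrils and limits their width. Its intensity was 115 and 118 with shBORIS, against 269 and 257 with shLUC. Both shBORIS values lay below both shLUC values. The log2 difference was -1.07 as deposited (SE 0.11; limma adjusted p = 3.59e-22) and -1.55 relative to the median (SE 0.07; adjusted p = 2.22e-07). All 3 of its probe sets above the filter fell, by log2 differences of -1.07 to -0.56 as deposited.

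COL5A2 encodes the chain that pairs with COL5A1 in type V trimers. Its intensity was 73.3 and 80.3 with shBORIS, against 47.9 and 49.8 with shLUC, so the groups did not overlap and shBORIS was the higher. It rose by 0.52 as deposited (adjusted p = 1.75e-05) and read 0.04 relative to the median (adjusted p = 0.736). The relative value was -0.23 as the mean of its probe sets (adjusted p = 0.00628), and 0.26 after quantile normalization (adjusted p = 0.0448); its adjusted p over all alternatives ran from 0.00628 to 0.852. The ratio of the 2 chains within an array does not depend on the scale chosen. COL5A1 over COL5A2 was 0.55 and 0.48 on the log2 scale with shBORIS, against 2.16 and 2.05 with shLUC, a difference of -1.59. The shLUC intensities of COL5A2 lay under the filter, and its other 5 probe sets did so in mean.

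COL1A1, which encodes the main chain of type I collagen, had intensities of 451 and 515 with shBORIS, against 729 and 779 with shLUC. The shBORIS arrays were the lower without overlap. The log2 difference was -0.63 as deposited (SE 0.11; adjusted p = 9.78e-08) and -1.11 against the median (SE 0.07; adjusted p = 1.86e-06). Of its 5 probe sets above the filter, 4 fell as deposited and all 5 relative to the median. The one that did not fall as deposited read 0.13 (adjusted p = 0.272) and was the dimmest.

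COL1A2, which supplies the other chain of type I trimers, was not tested, with means of 34.6 ± 9.24 (SD, n = 2) in shBORIS cells and 29.0 ± 1.05 (SD, n = 2) in shLUC cells. COL3A1, of type III, stood at 27.9 and 24.4. Both genes are strongly expressed by fibroblasts.

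COL2A1, the chain of cartilage collagen, had intensities of 579.5 and 632 with shBORIS, against 516 and 488 with shLUC. It rose by 0.26 as deposited (adjusted p = 0.0269), and against the median it fell by 0.21 (adjusted p = 0.00686), so its direction depends on the scale. The deposited call was lost without shBORIS replicate 2 (0.20; adjusted p = 0.221) or shLUC replicate 2 (0.22; adjusted p = 0.142), within a range of 0.0098 to 0.221 over the alternatives. The relative call was lost without the filter (-0.10; adjusted p = 0.148). The type XI chains COL11A1 and COL11A2, which assemble with it in cartilage, were not tested, at means over the 4 arrays of 29.4 and 57.7.

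**Figure D4:**
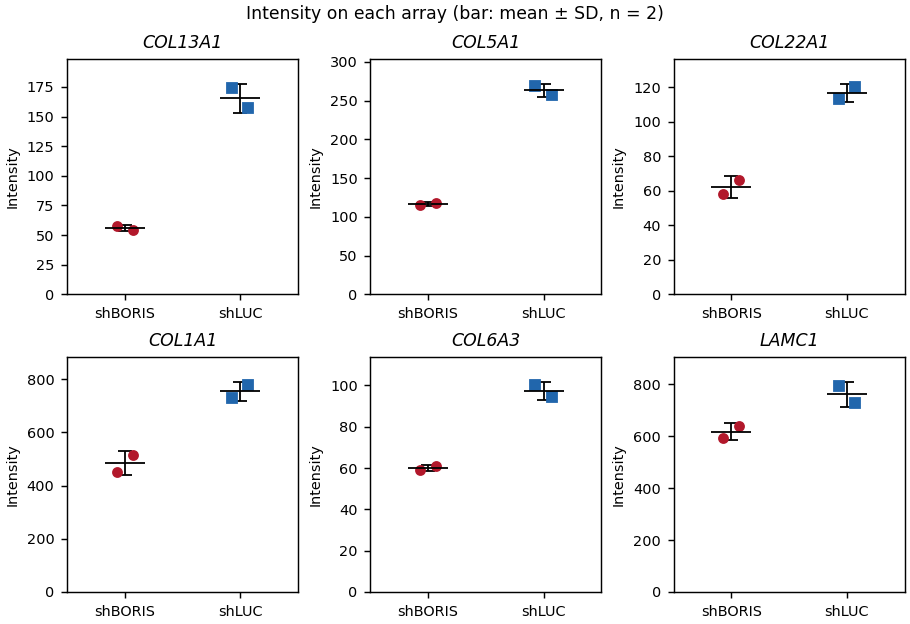
Intensity of the 6 genes that fell on both scales, with shBORIS circles left of shLUC squares and a bar for the mean ± SD (n = 2). In each panel both shBORIS points lie below both shLUC points, with the widest gap for COL13A1 (57.6 and 54.0 against 174 and 157) and the narrowest, in proportion, for LAMC1 (594 and 641 against 795 and 727).

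The largest fall among the 24 was that of COL13A1, which encodes a transmembrane collagen found at cell adhesions and the neuromuscular junction. Its intensity was 57.6 and 54.0 with shBORIS, against 174 and 157 with shLUC. Both shBORIS values lay under the filter, and both shLUC values above it. The log2 difference was -1.33 as deposited (SE 0.11; adjusted p = 1.15e-31) and -1.81 relative to the median (SE 0.08; adjusted p = 3.65e-07). All 4 of its probe sets fell, by -1.33 to -0.58 as deposited. Its adjusted p did not exceed 5.37e-06 under any alternative on the relative scale or 4.07e-19 as deposited.

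The other transmembrane collagens tested fell on the relative scale only. COL23A1 had intensities of 70.1 and 94.0 with shBORIS, against 84.6 and 96.2 with shLUC, and the groups overlapped. It read -0.13 as deposited (adjusted p = 0.283), and -0.60 against the median (adjusted p = 0.00125). Without shBORIS replicate 2 it fell as deposited, by 0.30 (adjusted p = 0.0398), and without shBORIS replicate 1 it read 0.05 (adjusted p = 0.74). COL25A1, known from amyloid plaques and motor neuron development, was read by a probe set (_x_at) that can take signal of related sequences. The other probe sets of COL25A1, under the filter at means of 18.0, 15.3 and 11.8, read -0.12, -0.09 and -0.02 as deposited. By its brightest, COL25A1 read 0.20 as deposited (adjusted p = 0.105), and -0.28 against the median (adjusted p = 0.0252). Its relative call was lost without shBORIS replicate 1 (adjusted p = 0.131) or shLUC replicate 1 (adjusted p = 0.139), with a pseudocount of 1 (adjusted p = 0.0749), without the filter (adjusted p = 0.143) and after quantile normalization (adjusted p = 0.48). Without those same replicates it rose as deposited, by 0.31 and 0.30 (adjusted p = 0.0411 and 0.0412).

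COL22A1 belongs to the FACIT collagens, which attach to the surface of fibrils, and is known from tissue junctions such as that of muscle and tendon. Its intensity was 57.9 and 66.5 with shBORIS, against 113 and 120 with shLUC. The shBORIS arrays were the lower without overlap, and near the filter. The log2 difference was -0.76 as deposited (SE 0.11; adjusted p = 3.86e-11) and -1.24 against the median (SE 0.09; adjusted p = 3.31e-06). Its second probe set, under the filter at a mean of 35.4, read -0.59 as deposited.

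Of the other FACIT collagens, 3 were tested. COL9A2 and COL9A3 encode chains of type IX, the FACIT of cartilage. COL9A2 had 138 and 144 with shBORIS, against 116 and 107 with shLUC, and rose by 0.30 as deposited (adjusted p = 0.00699) but read -0.17 relative to the median (adjusted p = 0.0569). Its deposited call was lost without shBORIS replicate 2 (0.27; adjusted p = 0.0547) or shLUC replicate 2 (0.25; adjusted p = 0.0813). COL9A3 had 125 and 160 with shBORIS, against 150.5 and 149 with shLUC, groups that overlapped. It read -0.07 as deposited (adjusted p = 0.52), and against the median it fell by 0.55 (adjusted p = 4.04e-04). COL16A1 read 0.16 as deposited (adjusted p = 0.156), and against the median it fell by 0.32 (adjusted p = 0.0036). COL9A1, the remaining type IX chain, was untested at a mean of 44.6.

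Type VI collagen is assembled from the chains of COL6A1, COL6A2 and COL6A3, and the 3 genes differed in these cells. COL6A3 had intensities of 59.0 and 61.1 with shBORIS, against 100.4 and 94.1 with shLUC, a log2 difference of -0.57 as deposited (SE 0.11; adjusted p = 9.49e-07) and -1.05 against the median (SE 0.08; adjusted p = 4.86e-06). The groups did not overlap. Its 2 other probe sets lay under the filter and read -0.27 and -0.06 as deposited.

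COL6A1 had 1241 and 1314 with shBORIS, against 1528 and 1371 with shLUC, again without overlap and lower with shBORIS. It read -0.18 as deposited (adjusted p = 0.12; -0.22 with adjusted p = 0.0387 when centred on the ERCC spikes), and against the median it fell by 0.66 (SE 0.05; adjusted p = 4.16e-06). Its 6 probe sets did not have 1 sign as deposited. They ran from -0.18 to 0.34, with 0 falling and 2 rising past the threshold. Relative to the median all 6 were negative and 4 fell.

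COL6A2 had 289 and 282 with shBORIS, against 234 and 239 with shLUC, with shBORIS the higher on both arrays. It rose by 0.26 as deposited (adjusted p = 0.0235), and against the median it fell by 0.22 (adjusted p = 0.0245). The deposited call was lost without any 1 of the 4 arrays (adjusted p = 0.0573 to 0.1), and the relative call without shBORIS replicate 2 (adjusted p = 0.148) or shLUC replicate 2 (adjusted p = 0.142), without the filter (adjusted p = 0.229) and as the mean of probe sets (adjusted p = 0.356). Its second probe set above the filter rose on both scales, by 0.81 as deposited and 0.34 against the median, so the probe sets of COL6A2 disagree in sign on the relative scale. Within arrays, COL6A3 over COL6A2 was -2.02 and -1.95 on the log2 scale with shBORIS, against -1.10 and -1.21 with shLUC, a difference of -0.83. COL6A6, a chain that can take the place of COL6A3, rose by 0.35 as deposited (adjusted p = 0.00178) and read -0.13 relative to the median (adjusted p = 0.175). COL6A5 was untested at a mean of 20.1.

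**Figure D5:**
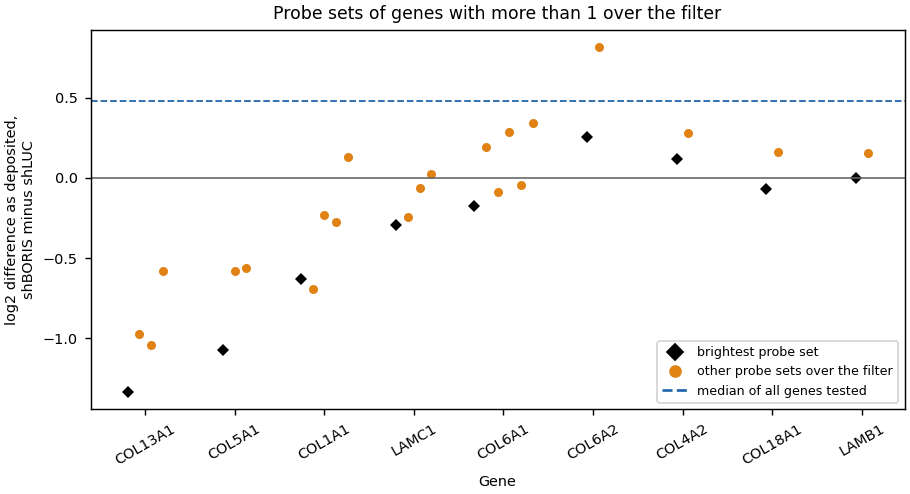
Log2 difference as deposited, shBORIS minus shLUC, of each probe set above the filter in the 9 genes that had more than 1, with the brightest as a diamond. All probe sets of COL13A1 and COL5A1 lie below 0, those of COL6A1 lie on both sides of 0, and the dashed line marks the median of all genes at 0.48.

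Type IV collagen, the sheet of the basement membrane, was represented among the genes tested by COL4A2 alone. It had 102 and 113 with shBORIS, against 105 and 90.2 with shLUC, groups that overlapped. It read 0.12 as deposited (adjusted p = 0.304), and 0.17 as the mean of probe sets (adjusted p = 0.0433). Against the median it fell by 0.36 (adjusted p = 0.00275). The second probe set of COL4A2 above the filter rose by 0.28 as deposited (adjusted p = 0.0163). Against the median that probe set read -0.20 (adjusted p = 0.0885). COL4A1, its partner in the trimer, was under the filter at 56.5 ± 3.54 (SD, n = 2) in shBORIS cells and 43.7 ± 2.42 (SD, n = 2) in shLUC cells. In the fit without a filter COL4A1 read 0.28 as deposited (adjusted p = 0.0249), and -0.08 against the median (adjusted p = 0.482). The median of that fit is of all genes, and COL4A2 read -0.24 there. Against the median of the genes tested, COL4A1 read -0.20. The 2 genes lie head to head and share the stretch between their starts. COL4A6, whose partner is COL4A5, stood at 67.5 ± 7.93 and 44.7 ± 2.96 (SD, n = 2) in shBORIS and shLUC cells. In the fit without a filter COL4A6 rose by 0.46 as deposited (adjusted p = 1.43e-04). It read 0.09 relative to the median of all genes (adjusted p = 0.419), and -0.02 relative to that of the genes tested. COL4A3, COL4A4 and COL4A5 had means of 12.7 to 20.2.

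The remaining collagens tested were COL7A1, of the anchoring fibrils that tie epithelium to the tissue below, and COL18A1, the source of the fragment endostatin. COL7A1 had 77.8 and 88.9 with shBORIS, against 59.3 and 53.2 with shLUC, and rose by 0.46 as deposited (adjusted p = 1.13e-04). Relative to the median it read -0.02 (adjusted p = 0.864), a sign that turned under 5 of the 11 alternatives. COL18A1 had 188 and 225 with shBORIS, against 209 and 224 with shLUC, which overlapped. It read -0.07 as deposited (adjusted p = 0.547), and against the median it fell by 0.55 (adjusted p = 3.14e-04).

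Among laminins, LAMC1 was the only one to fall on both scales. LAMC1 encodes the gamma chain found in most laminins. Its intensity was 594 and 641 with shBORIS, against 795 and 727 with shLUC. The groups did not overlap. The log2 difference was -0.29 as deposited (SE 0.11; adjusted p = 0.013) and -0.77 against the median (SE 0.05; adjusted p = 2.35e-06). Of its 4 probe sets above the filter, 2 fell as deposited and all 4 relative to the median. The deposited call was lost without shBORIS replicate 1 (-0.24; adjusted p = 0.124), without shLUC replicate 1 (-0.23; adjusted p = 0.124) and as the mean of probe sets (-0.10; adjusted p = 0.306), within a range of 0.00226 to 0.306 over the alternatives.

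The alpha chains LAMA1 and LAMA5, which carry the cell-binding end of the trimer, did not pass the test as deposited. LAMA1, the alpha chain of embryonic basement membrane, had 801 and 912 with shBORIS, against 811 and 781 with shLUC. The groups overlapped. It read 0.10 as deposited (adjusted p = 0.402), and against the median it fell by 0.38 (adjusted p = 2.79e-04). LAMA5, the widespread adult alpha chain, had 405 and 421 with shBORIS, against 400.1 and 365 with shLUC. It read 0.11 as deposited (adjusted p = 0.367), and against the median it fell by 0.37 (adjusted p = 3.42e-04). LAMA4, the alpha chain of blood vessels and nerve sheath, and LAMA2, that of muscle and Schwann cells, were untested, at means of 58.4 and 25.8.

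LAMB1, the beta partner of LAMC1 in many laminins, had 553 and 679 with shBORIS, against 700 and 540 with shLUC. Both shBORIS values lay between the shLUC values. It read -0.00381 as deposited (adjusted p = 0.977), and against the median it fell by 0.48 (adjusted p = 0.00116). LAMB2, the beta chain of kidney and synapse, had 90.6 and 91.4 with shBORIS, against 70.3 and 65.8 with shLUC. It rose by 0.35 as deposited (adjusted p = 0.00291) and read -0.13 relative to the median (adjusted p = 0.205). LAMB4 read 0.21 as deposited (adjusted p = 0.0857), and against the median it fell by 0.27 (adjusted p = 0.0213). That relative call was lost without shBORIS replicate 2 (adjusted p = 0.0916) or shLUC replicate 2 (adjusted p = 0.126), with a pseudocount of 1 (adjusted p = 0.0527), without the filter (adjusted p = 0.134) and after quantile normalization (adjusted p = 0.325). Within arrays, LAMC1 over LAMA1 was -0.42 and -0.50 on the log2 scale with shBORIS, against -0.03 and -0.10 with shLUC, a difference of -0.40. LAMC1 over LAMB1 was 0.10 and -0.08 with shBORIS, against 0.18 and 0.42 with shLUC, a difference of -0.29 without overlap. LAMB3 and LAMC3 were untested at means of 45.4 and 42.9.

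The 29 untested genes had intensities of 8.88 to 73.1 on single arrays. In the limma fit without a filter, 9 of them rose and 0 fell as deposited, and 0 rose and 8 fell relative to the median; the counts of 0 were also 0 at an unadjusted p under 0.05. In that fit 53.6% of all genes rose and 3.73% fell as deposited, and 25.9% rose and 27.7% fell relative to the median, so the share of these 29 that fell relative to the median was close to that of all genes. Their deposited differences ran from -0.22 to 0.46, with COL28A1 at the low end and COL4A6 at the high end.

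The counts of the partner lists stand beside the same shares of all genes as above: 30.3% rose and 28.8% fell relative to the median, and 77.2% rose and 4.64% fell as deposited. Of 23 genes tested that fold and secrete collagen, 7 rose and 10 fell relative to the median, with a median of -0.10, and 15 rose and 1 fell as deposited. The share that rose relative to the median was close to that of all genes. SERPINH1, the chaperone that holds the collagen triple helix, rose to 708 ± 94.9 in shBORIS cells, against 270 ± 0.838 in shLUC cells (SD, n = 2), by 0.85 relative to the median (adjusted p = 7.62e-06). SEC23A, of the vesicle coat that carries procollagen, fell by 0.99 relative to the median and by 0.51 as deposited. The prolyl hydroxylases P4HA2 and P3H1 fell by 0.62 and 0.49 relative to the median, and read -0.14 and -0.02 as deposited. Their relatives differed. P3H3 and P3H4 rose by 0.35 and 0.25 relative to the median and by 0.83 and 0.73 as deposited. P4HA1 fell by 0.24 relative to the median and rose by 0.24 as deposited.

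Of 11 genes of procollagen processing and crosslinking, 1 rose and 6 fell relative to the median, with a median of -0.26, while 6 rose and 1 fell as deposited. The transglutaminase TGM2 had 83.6 ± 0.468 in shBORIS cells and 199 ± 17.1 in shLUC cells (SD, n = 2), and fell by 1.59 relative to the median (adjusted p = 3.63e-07) and by 1.11 as deposited. The procollagen protease enhancer PCOLCE rose by 0.38 relative to the median and by 0.86 as deposited. The procollagen protease BMP1 and the lysyl oxidase relative LOXL2 fell by 0.64 and 0.54 relative to the median, and read -0.17 and -0.06 as deposited.

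Of 9 integrin subunits that bind collagen or laminin, 4 were tested. ITGB1, the common beta subunit, rose to 1156 ± 30.5 in shBORIS cells, against 657 ± 66.3 in shLUC cells (SD, n = 2), by 0.33 relative to the median (adjusted p = 6.54e-04) and 0.80 as deposited. The laminin-binding subunits ITGA3, ITGA6 and ITGB4 fell by 0.84, 0.52 and 0.46 relative to the median. As deposited ITGA3 fell by 0.36 (adjusted p = 0.00268), ITGA6 read -0.05 and ITGB4 read 0.02. Among 12 other receptors, 1 rose and 4 fell relative to the median, and 9 rose and 1 fell as deposited. SSPN, a member of the dystrophin complex that links laminin to the cytoskeleton, fell by 1.08 relative to the median and by 0.61 as deposited. SGCE, MRC2 and ADGRG1 fell by 0.30, 0.24 and 0.30 relative to the median; as deposited SGCE and ADGRG1 both read 0.17, and MRC2 rose by 0.23 (adjusted p = 0.0499).

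Of 7 basement membrane partners, 0 rose and 4 fell relative to the median by limma's adjusted p, 1 being higher at an unadjusted p under 0.05, and 5 rose and 1 fell as deposited. AGRN, the proteoglycan agrin that binds laminin and organises the neuromuscular junction, had 186 ± 17.3 in shBORIS cells and 365 ± 39.7 in shLUC cells (SD, n = 2). It fell by 1.39 relative to the median (adjusted p = 4.22e-07) and by 0.91 as deposited. EGFLAM, SPARC and HSPG2 fell by 0.66, 0.23 and 0.24 relative to the median, while as deposited SPARC and HSPG2 rose by 0.25 and 0.23 and EGFLAM read -0.18 (adjusted p = 0.117). Of 10 interstitial matrix partners, 2 rose and 4 fell relative to the median, and 6 rose and 2 fell as deposited. VCAN, the proteoglycan versican, rose by 0.62 relative to the median. THBS1, TNC and THBS2 fell by 0.93, 0.82 and 0.68; as deposited THBS1 fell by 0.46, TNC by 0.34, and THBS2 read -0.21 (adjusted p = 0.0638).

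Markers of other cell types were mostly dim. Of 7 fibroblast markers other than collagens, 3 were tested: ACTA2 fell by 1.06 relative to the median and by 0.58 as deposited, THY1 rose by 0.65 and 1.13, and PDGFRB read -0.05 relative to the median (adjusted p = 0.51) and rose by 0.43 as deposited (adjusted p = 1.42e-04). DCN, PDGFRA and FAP lay between 10.3 and 35.3 on every array. LUM, also untested, had 62.4 and 57.3 with shBORIS, against 46.2 and 44.9 with shLUC, without overlap of the groups. The summed intensity of the 7 was 758 and 845 with shBORIS, against 554 and 528 with shLUC. Of 6 endothelial markers, 2 were tested, and CLDN5 and VWF fell by 0.40 and 0.27 relative to the median, while both read above 0 as deposited (0.08 and 0.20; adjusted p = 0.479 and 0.0876). Their sum was 340.0 and 359 with shBORIS, against 339 and 302 with shLUC. Of 5 Schwann cell markers in the table, NGFR alone was tested and fell by 0.77 relative to the median and by 0.30 as deposited. Their sum was 428 and 485 with shBORIS, against 582 and 516 with shLUC. The 4 untested ones went both ways without overlap of the groups. ERBB3 had 23.4 and 22.7 with shBORIS, against 74.3 and 66.2 with shLUC, and FABP7 had 20.7 and 21.6 against 27.7 and 26.4. SOX10 had 61.9 and 80.2 with shBORIS, against 52.1 and 42.2 with shLUC, and S100B had 40.7 and 38.4 against 33.7 and 28.7. Of 6 immune markers, CD74 alone was tested; it fell by 0.29 relative to the median and read 0.19 as deposited (adjusted p = 0.108). Their sum was 204 and 216 with shBORIS, against 187 and 176 with shLUC. No marker was listed at 0. The part of such cells in the results was not tested. All 7 adrenergic neuroblastoma markers in the table were tested, and the sign of all but PHOX2A and DBH turned with the scale. Relative to the median 1, DBH, rose and 6 fell, beside 30.3% and 28.8% of all genes, while as deposited 3 rose and 0 fell by limma's adjusted p, beside 77.2% and 4.64%. At an unadjusted p under 0.05, the count of falls as deposited was also 0. PHOX2A read -0.65 relative to the median and -0.17 as deposited (adjusted p = 0.145 as deposited), MYCN -0.33 and 0.15 (adjusted p = 0.11 as deposited), and HAND2 -0.31 and 0.16 (adjusted p = 0.0784 as deposited). TH read -0.26 and 0.21 (adjusted p = 0.0712 as deposited). DBH rose by 0.39 relative to the median and by 0.87 as deposited. ISL1 and GATA3 rose by 0.30 and 0.32 as deposited and fell by 0.17 and 0.15 relative to the median.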

How the data were processed

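Per the labels' protocols, total RNA was spiked with synthetic ERCC RNAs, and 100 ng was biotin-labelled and hybridised to Affymetrix PrimeView arrays. The authors deposited 1 linear intensity per probe set and array. The submitters' processing notes list MAS5, R 3.1.3 and affy without roles, and no source used here says how the arrays were scaled. The median of the ERCC probe sets was 25.5 and 25.8 with shBORIS, against 24.8 and 24.4 with shLUC.

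Of 49495 probe sets, 202 controls, 1333 with several symbols and 2682 without annotation were left out. Symbols of the other 45278 were updated through Entrez identifiers, of which 45208 matched the RefSeq table of GRCh38.p14. Each of 18244 genes took its brightest probe set by mean, and 10946 at or above the 40th percentile were tested. Values were log2(intensity + 16), so folds of dim genes are understated. limma 3.58.1 in R 4.3.3 was fitted with the hairpin as its only term, 2 residual degrees of freedom and a prior variance that follows intensity, once on the values as they stand and once with the array's median of tested genes taken off. P-values are 2-sided and adjusted by Benjamini-Hochberg over all genes tested, with 0.05 as threshold; those of single probe sets are adjusted over all probe sets above the filter. As deposited the prior degrees of freedom were infinite, so very small p-values are nominal. The SE on that scale follows the trend with intensity alone and does not reflect the spread of a gene's own replicates. For 2 against 2 arrays the lowest p of an exact two-sided test is 0.333. The fit was checked on simulated data with few genes changed and no shift shared by an array. That check does not cover calls under a shift of most genes, as found here. The number of arrays limits the precision. Probe sets shared by transcripts (names with _s_at or _x_at, as for COL6A1, COL6A2, COL5A2, COL25A1, COL4A2 and LAMC1) can take signal of related sequences.

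The genes and the lists of partners and markers were chosen with earlier results of these data known. Named were CTCFL, every member tested, untested chains of the same trimer or gene pair, those near the filter, and up to 4 of each list with the smallest p relative to the median; members outside this, and some markers, were named after their values were seen. Alternatives were other pseudocounts, filters, probe set summaries, scalings and priors, each array left out, and the replicate number as a block.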

Additional observations from a re-analysis of the deposited data

How the results depend on the processing

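COL13A1, COL5A1, COL22A1, COL1A1 and COL6A3 kept their sign and their call on both scales under every alternative that tested them, and LAMC1 did so relative to the median. With no filter, 16 of 53 members rose as deposited and the median relative difference was -0.20. With the filter at the 60th percentile, 10 members were left; 2 rose and 3 fell as deposited with a median of -0.037, and 10 fell relative to the median with a median of -0.58, from fewer genes tested. After quantile normalization 1 rose, 17 fell and the median was -0.45. With the deposited values centred on the ERCC spikes, 7 rose and 7 fell, beside 8233 and 592 of all 10946 genes tested. The median was then 0.068 for the members and 0.44 for all genes. Leaving out each array gave 4 to 7 rises and 5 to 7 falls as deposited (4 rises without shBORIS replicate 2 or shLUC replicate 2) with a median of 0.03 to 0.16, and 0 rises and 17 to 18 falls relative to the median with a median of -0.40 to -0.36. Above the mean of background sets were 10 members with shBORIS and 13 with shLUC, above the highest set 0 and 0, and above the median set, a limit chosen after seeing the data, 47 and 48.

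Signs turned for members not called on the scale concerned, apart from COL5A2 as the mean of probe sets (adjusted p = 0.00628). As the mean of probe sets, COL18A1, COL25A1, COL6A1 and LAMB1 read 0.045, -0.0088, 0.084 and 0.077 as deposited, and COL5A2 and COL7A1 read -0.23 and 0.022 relative to the median. Over the leave-one-out fits, the values as deposited ran from -0.19 to 0.051 for COL18A1, -0.30 to 0.050 for COL23A1, -0.23 to 0.085 for COL9A3 and -0.19 to 0.18 for LAMB1, with the values above 0 without shBORIS replicate 1 and, for LAMB1, also without shLUC replicate 1. Relative to the median they ran from -0.035 to 0.11 for COL5A2, below 0 without shLUC replicate 1, and from -0.055 to 0.017 for COL7A1, above 0 without shBORIS replicate 1. Relative to the median, COL7A1 read 0.052 with a pseudocount of 1, 0.096 with no filter and 0.17 after quantile normalization, COL5A2 read -0.086 with a pseudocount of 64 and LAMB2 0.027 after quantile normalization. The cause was not tested.

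Groups share replicate numbers 1 and 2, which no label says mark a shared culture; deviations of same-numbered arrays correlated at 0.098 across genes. With the replicate block, 5 members rose and 5 fell as deposited, and 0 rose and 19 fell relative to the median. COL2A1 (adjusted p = 0.152), COL6A2 (adjusted p = 0.115) and LAMC1 (adjusted p = 0.113) were not called as deposited in that fit. Nearness to background limits the size of falls in dim genes.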
